A study of Homo sapiens with 8 samples.

Results

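MTHFS and 7 other genes of folate metabolism (MTHFD1, MTHFD1L, MTHFD2, SHMT1, SHMT2, ALDH1L2 and FPGS) were followed in KYSE850 cells after silencing of KHSRP. KYSE850 is an established cell line from a human esophageal squamous cell carcinoma, and KHSRP is an RNA-binding protein that acts in mRNA decay, splicing and miRNA maturation. Their mRNA was read on 8 Agilent arrays of a single colour, of which 4 carried RNA after a control siRNA and 4 after an siRNA to KHSRP. Such short RNAs direct the breakdown of a matching transcript, and the labels do not say which of the study's KHSRP siRNAs went onto which array, nor whether the 4 samples of a group were separate cultures. The p-values therefore measure the spread between these samples, which may be technical. The members were found through the RefSeq accession that the array design gives each probe, which led to 12 probes for the 8 genes, out of 42405 probes and 20249 named genes. MTHFS was chosen by its low signal on the KHSRP siRNA arrays of this same comparison, so its values are a description and carry no test. The other 7 genes were added for their place in the pathway, with earlier results of these data known.

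Folate carries single carbon units, at several states of oxidation, to the enzymes that make purines, thymidylate and methionine. In the cytosol MTHFS returns folinic acid, a formylated reserve form of folate, to the active pool, while MTHFD1 and SHMT1 move carbon units between the other forms and FPGS adds the glutamate tail that holds folate inside the cell. In mitochondria SHMT2, MTHFD2 and MTHFD1L turn serine into formate for export, and ALDH1L2 oxidises formyl-folate. Growing tumour cells are known for high levels of the mitochondrial branch.

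Every level given here is a log2 signal relative to the 75th percentile of the same array, and 0 therefore stands for the percentile itself. Levels of different probes are not comparable with each other. Between 45.1% and 49.4% of the probes on an array passed the scanner software's flag for signals well above background, and 0 spots were saturated. The 4 arrays of a group were not alike. The 8 squamous markers (KRT5, KRT14, KRT6A, KRT17, TP63, SOX2, DSG3 and PKP1) were well above background on all 8 arrays, but their mean log2 level was 3.12 to 3.61 on replicates 1 and 3 of the control siRNA and 1 and 4 of the KHSRP siRNA, against 0.78 to 1.62 on the other 4 arrays. Each siRNA group held 2 arrays of either kind. Of the fibroblast and endothelial markers, 4 of 5 and 4 of 4 were well above background on no array. Of the 5 immune markers, 2 were well above background on all 8 arrays, and the mean log2 level of the list was -2.49 to -1.48 with control siRNA and -2.47 to -1.0 with KHSRP siRNA. KHSRP itself had a log2 level of 5.81 to 6.39 on the control arrays and 2.52 to 2.88 on the KHSRP siRNA arrays (A_23_P16157), a difference of -3.37 (SE 0.16, adjusted p = 5.95e-05, limma). This left 9.66% of the control signal, and the groups did not overlap (exact permutation p = 0.0286, two-sided, the smallest that 4 against 4 allows).

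**Figure D1:**
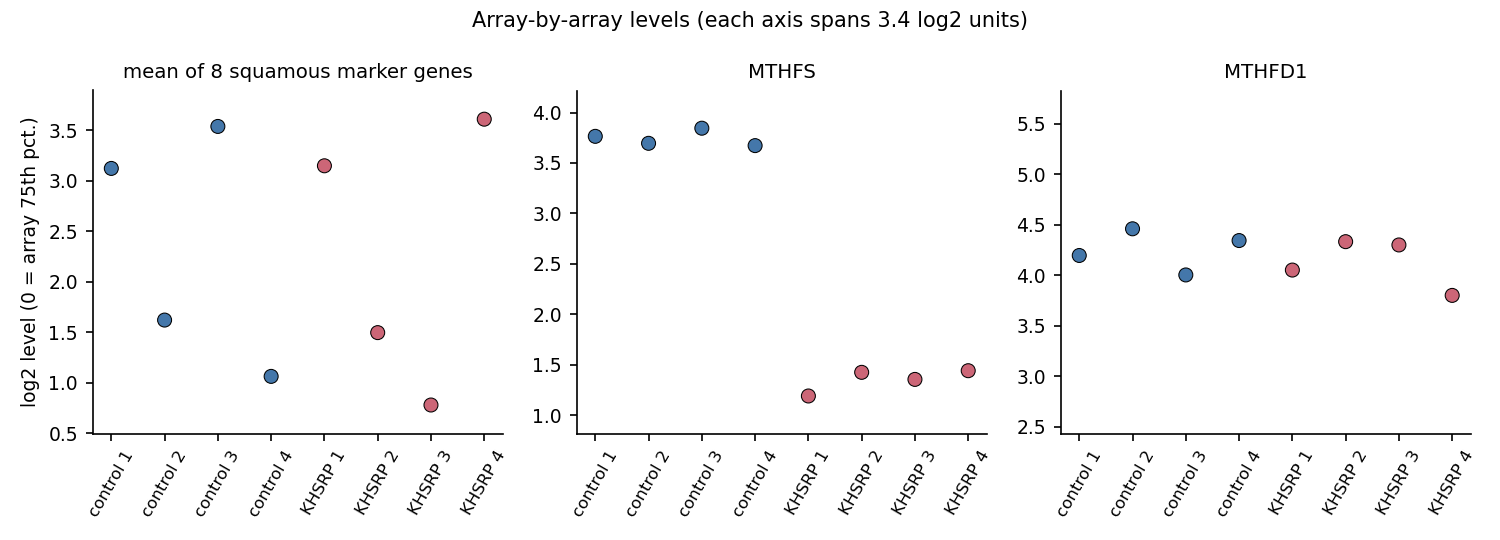
Mean log2 level of the 8 squamous marker genes (left), log2 level of MTHFS (middle) and of MTHFD1 (right) on each of the 8 arrays, in blue for control siRNA and red for KHSRP siRNA. The markers split each group into 2 arrays at 3.12 or above and 2 at 1.62 or below, whereas MTHFS separated by siRNA and MTHFD1 overlapped between the groups.

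MTHFS mRNA was 5.24-fold lower after KHSRP siRNA. At the single MTHFS probe, A_23_P163380, the log2 level was 3.76, 3.69, 3.84 and 3.67 in control siRNA replicates 1 to 4. In KHSRP siRNA replicates 1 to 4 it was 1.19, 1.43, 1.36 and 1.44. The 2 groups were therefore apart by 2.23 between the lowest control and the highest KHSRP siRNA array, and any of the 16 combinations of a control and a KHSRP siRNA array differed by 2.23 to 2.65. The group means were 3.74 ± 0.08 and 1.35 ± 0.11 (SD, n = 4 each), a log2 difference of -2.39 (SE 0.11) that left 19.1% of the control signal. The probe was well above background on all 8 arrays. In RNA from whole cultures, fewer cells that make a transcript and less transcript per cell cannot be told apart. The spread of MTHFS within groups was small, since 4.99% of the 18761 tested probes had a lower within-group SD (0.098 for MTHFS, against a median of 0.26).

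The position of MTHFS among the lower signals depended on how dim probes were treated. Among the 17229 probes well above background on all 8 arrays it had the second largest negative difference after KHSRP. TENM2 (A_33_P3245218, -2.24) and ITGB1 (A_23_P104199, -2.19) came next. Among all 18761 tested probes it was number 12, because 10 probes (1 of them a dim second probe of KHSRP) that were well above background on no more than 2 of the 4 KHSRP siRNA arrays had a larger negative difference, ending with ALG2 (A_33_P3297050, -2.43). The difference of MTHFS was -2.42 within the slide that held replicates 1 and 2 of both groups and -2.36 within the slide that held replicates 3 and 4. By siRNA, MTHFS was apart on both kinds of array set out above by their squamous markers. Controls were at 3.76 and 3.84 against 1.19 and 1.44 where these markers were high. They were at 3.69 and 3.67 against 1.43 and 1.36 where the markers were low. MTHFS was chosen for this difference, so its rank and its differences within slides or kinds of array are no further support for it.

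**Figure D2:**
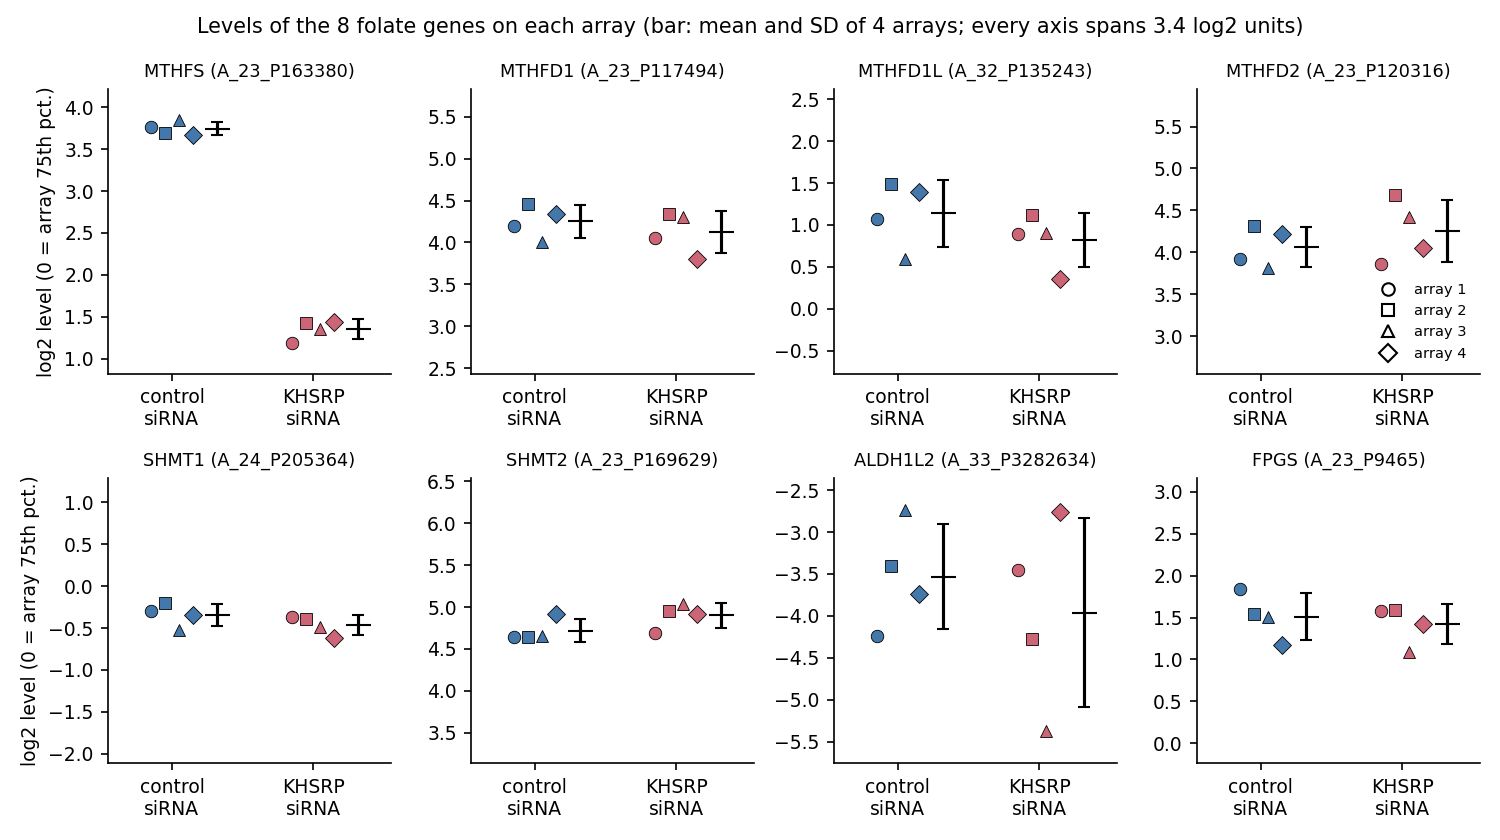
Log2 level, relative to the 75th percentile of the array, of the 8 folate genes on the 4 control siRNA arrays (blue) and the 4 KHSRP siRNA arrays (red), with marker shape for the replicate number and black bars for mean and SD. Each gene is shown by its probe with the highest mean level, and MTHFS is the panel in which the groups lie apart (3.74 ± 0.08 and 1.35 ± 0.11).

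Of the other 7 members, 6 could be tested, with 10 probes, and 0 were called. Called here means an adjusted p under 0.05 in limma, after Benjamini-Hochberg adjustment over all 18761 tested probes, of which 5.54% were called. At an unadjusted p under 0.05, which 19.6% of all tested probes met, the count was also 0 of 10, and it was 0 for limma with slide as a block and for the methods' t-test at the gene's brightest probe. The groups overlapped at all 10 probes, while 14.8% of all tested probes did not overlap. Log2 differences ran from -0.32 to 0.19 and adjusted p from 0.412 to 0.997. The widest limits of the 95% intervals were -0.85 and 0.66, so differences of up to 1.81-fold lower or 1.58-fold higher lay inside the interval of at least 1 probe.

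Among the cytosolic enzymes, MTHFD1 interconverts methylene-, methenyl- and formyl-folate. Its log2 level was 4.20, 4.46, 4.0 and 4.34 in control siRNA replicates 1 to 4 and 4.05, 4.33, 4.30 and 3.80 in KHSRP siRNA replicates 1 to 4 (A_23_P117494). The groups overlapped through most of their range, with a log2 difference of -0.13 (95% interval -0.50 to 0.24, adjusted p = 0.756). SHMT1, which takes a carbon unit from serine in the cytosol, had 2 probes. At A_24_P205364 the level was -0.34 ± 0.13 and -0.47 ± 0.12 (SD, n = 4 each), with an interval of -0.39 to 0.14 for the difference (adjusted p = 0.656). At its other probe, A_23_P502654, the difference was -0.0015 with an SE of 0.12. FPGS, the polyglutamate synthase, had a level of 1.51 ± 0.28 with control siRNA and 1.42 ± 0.24 with KHSRP siRNA at A_23_P9465 (SD, n = 4 each). Its log2 difference of -0.09 (adjusted p = 0.864) turned to 0.02 both without control siRNA replicate 1 and without KHSRP siRNA replicate 3, and its other probe, A_33_P3394198, differed by -0.03 (SE 0.20).

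In the mitochondrial branch the brightest probe was higher with KHSRP siRNA for SHMT2 and MTHFD2 and lower for MTHFD1L. In each case the 95% interval of the fit without a block included 0. SHMT2, the mitochondrial serine hydroxymethyltransferase, was at 4.64, 4.64, 4.65 and 4.92 on the control arrays and at 4.69, 4.96, 5.03 and 4.92 on the KHSRP siRNA arrays (A_23_P169629). Control replicate 4 stood among the KHSRP siRNA values, and the difference was 0.18 (95% interval -0.10 to 0.47, adjusted p = 0.489). MTHFD2, a methylene-folate dehydrogenase and cyclohydrolase, had levels of 3.92, 4.31, 3.81 and 4.22 with control siRNA and 3.86, 4.68, 4.42 and 4.05 with KHSRP siRNA (A_23_P120316). Its difference was 0.19 (interval -0.28 to 0.66, adjusted p = 0.710), and KHSRP siRNA replicate 1 lay below 3 of the 4 controls. MTHFD1L, which releases formate, was read by 3 probes that differed in sign. The log2 difference was -0.32 at A_32_P135243 (SE 0.23, adjusted p = 0.535), -0.32 at A_24_P235049 (SE 0.19, adjusted p = 0.412) and 0.10 at A_23_P214907 (SE 0.16, adjusted p = 0.832). ALDH1L2 was too dim to be tested, since its probe was well above background on 2 of 4 arrays in either group, and its level ranged from -4.24 to -2.74 with control siRNA and from -5.38 to -2.76 with KHSRP siRNA.

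Levels of MTHFD1 and MTHFD2 differed between the 2 kinds of array set apart by the squamous markers. MTHFD1 was at 4.30 to 4.46 on the 4 arrays with low squamous markers and at 3.80 to 4.20 on the other 4, without overlap. MTHFD2 was likewise at 4.22 to 4.68 against 3.81 to 4.05. This split is a description with no test, and the share of all tested probes that split likewise was not counted. It is not particular to these 2 genes. For example, ATF4 was at 7.80 to 7.86 on the arrays with low squamous markers and at 7.17 to 7.44 on the others. The replicate numbers of the deposited series matrix pair a control with a KHSRP siRNA array of the same kind throughout. Deviations from the group means correlated at 0.52, 0.43, 0.83 and 0.84 within its 4 pairs, across tested probes. Control and KHSRP siRNA arrays of the same kind outside the pairs, on different slides, correlated at 0.38 to 0.42. Pairing by number cannot be told apart from the shared kind and slide of these 4 pairs. In these pairs MTHFS differed by -2.57, -2.27, -2.40 and -2.32. For the other genes the pair differences were much smaller. They were negative in 4 of 4 pairs for MTHFD1 (-0.20 to -0.04), SHMT1 at A_24_P205364 (-0.19 to -0.07) and MTHFD1L at A_32_P135243 (-0.49 to -0.18) and A_24_P235049 (-0.60 to -0.03), and positive in 4 of 4 for SHMT2 (0.05 to 0.31). The sign was mixed for MTHFD2, for FPGS at both probes, for SHMT1 at A_23_P502654 and for MTHFD1L at A_23_P214907. The share of all tested probes with the same sign in 4 of 4 pairs was not counted. With this pairing as a block in limma, MTHFD1L at A_32_P135243 fell (adjusted p = 0.0293), and the other 9 probes had adjusted p from 0.0736 to 0.990. The block called 30.1% of all tested probes, and 1 of 10 member probes is no more than that share.

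**Figure D3:**
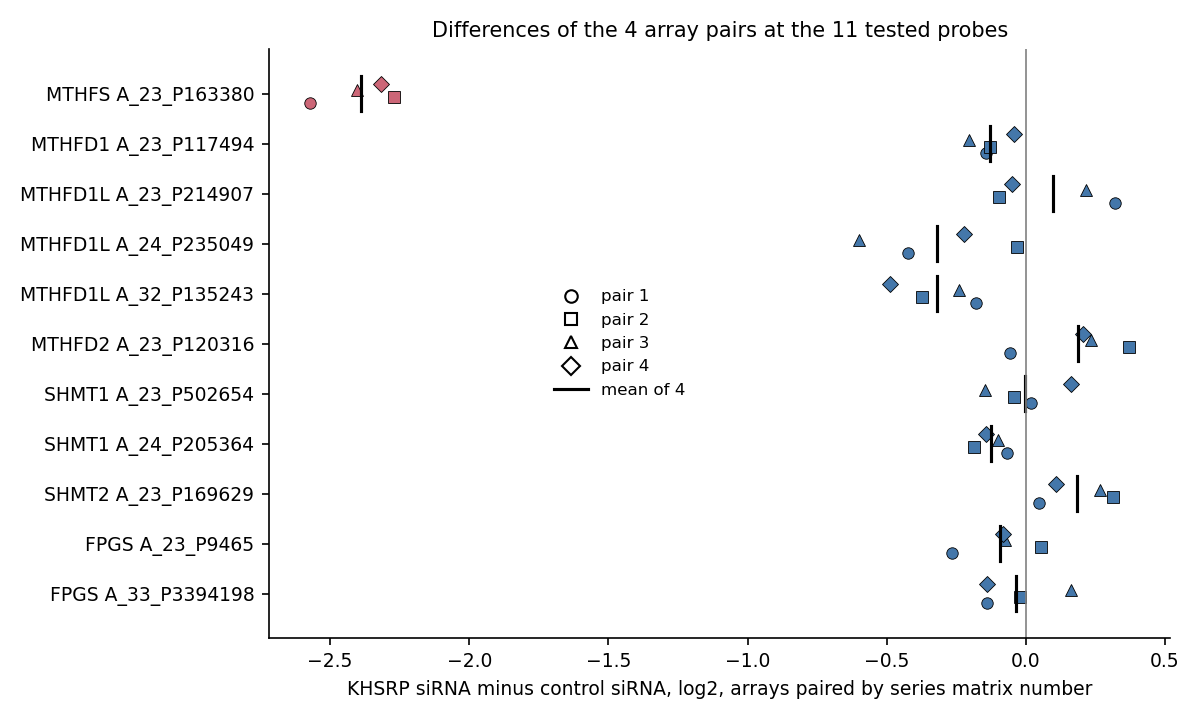
Log2 difference, KHSRP siRNA minus control siRNA, at the 11 tested probes of the folate genes, for each of the 4 array pairs numbered as in the series matrix (marker shape) and as the mean of the 4 (black line). The MTHFS pairs lie between -2.57 and -2.27, and those of the other 10 probes between -0.60 and 0.37.

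The rest of folate and one-carbon metabolism was described through 50 further genes, listed by role. Of these 41 were tested, each by its brightest tested probe, and 0 were called by limma, where 5.54% of all probes were called. At an unadjusted p under 0.05 there were 8 genes, among them SLC46A1, TYMS, IMPDH1, PRPS2, DLD, MTR and MAT1A. These 8 of 41 are near the 19.6% of all tested probes at that level. The median log2 difference was -0.05, against 0.01 over all tested probes, with 16 genes higher and 25 lower. The groups did not overlap for 4 of the 41 genes (TYMS, PRPS2, MTR and MAT1A), where the share over all probes was 14.8%. Among the 9 genes too dim for a test were FOLR2, MTHFD2L, ALDH1L1, FTCD, DMGDH, BHMT, BHMT2 and GNMT.

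**Figure D4:**
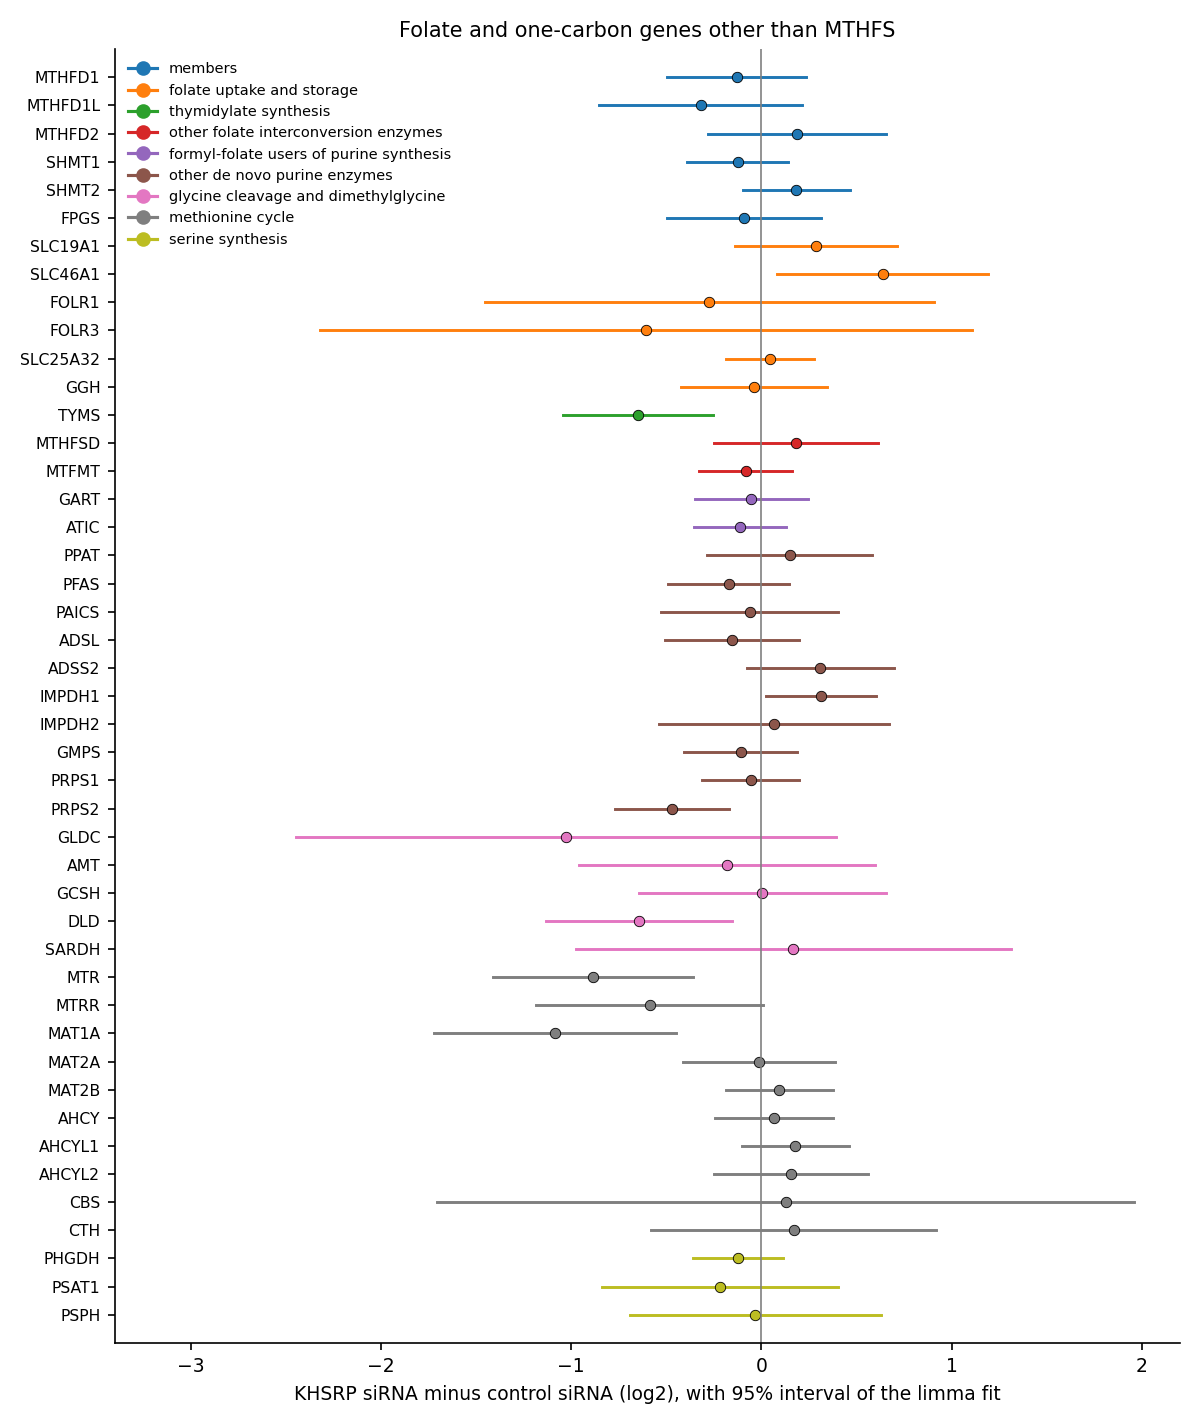
Log2 difference, KHSRP siRNA minus control siRNA, with its 95% interval from limma for the 6 tested members other than MTHFS and for other tested folate and one-carbon genes, coloured by role. The lowest values are those of MAT1A (-1.09) and GLDC (-1.03), the highest is that of SLC46A1 (0.64), and none of the genes shown was called.

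Among carriers and storage enzymes, 3 of 6 tested genes were higher and 3 lower. SLC46A1, the proton-coupled folate transporter, was at 0.49 ± 0.37 with control siRNA and 1.13 ± 0.39 with KHSRP siRNA (SD, n = 4 each), a difference of 0.64 (SE 0.24, adjusted p = 0.187). It was not called with slide (adjusted p = 0.218) or the scanner file numbers (0.321) as a block. In the 4 pairs it was higher by 0.53 to 0.70. It rose with the pairing as a block (adjusted p = 0.00290), which called 30.1% of all probes. SLC19A1, the reduced folate carrier, gave opposite signs at its 2 probes, 0.29 at A_33_P3384108 and -0.30 at A_33_P3265549, and with that block both passed (adjusted p 0.0437 and 0.0259).

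TYMS, the thymidylate synthase that uses methylene-folate to make a DNA precursor, was at 5.89, 6.14, 5.65 and 6.02 on the control arrays and at 5.04, 5.5, 5.54 and 5.02 on the KHSRP siRNA arrays. All 4 KHSRP siRNA values lay below the controls, but the difference of -0.65 (SE 0.17) had an adjusted p of 0.0695. TYMS differed by -0.84 to -0.48 in the 4 pairs, and it fell with the pairing as a block (adjusted p = 0.00481), which called 30.1% of all probes. It was not called with slide (adjusted p = 0.0833) or the scanner file numbers (0.180) as a block.

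In the methionine cycle 10 of 13 genes were tested, with a median of 0.08. MTR, the methionine synthase that takes the methyl group of methyl-folate, was at 0.88 ± 0.24 and 0.00 ± 0.44 (SD, n = 4 each, A_23_P200936), a difference of -0.89 (SE 0.23, adjusted p = 0.0656). Its second probe, A_24_P67806, differed by -0.47 (adjusted p = 0.0519), and the groups did not overlap at either. MTR fell with slide as a block (adjusted p 0.0402 and 0.0477), which called 6.23% of all probes. It fell with the pairing as a block (0.0113 and 0.00846), which called 30.1%, and under the mean of its probes (adjusted p = 0.0335). It was not called with the scanner file numbers as a block (adjusted p 0.148 and 0.169), so its call turned on the model. MTRR, which reactivates MTR, differed by -0.59 (SE 0.26, adjusted p = 0.263) and fell in the paired fit (adjusted p = 0.0137), which called 30.1% of all probes. It was not called with slide (adjusted p = 0.271) or the scanner file numbers (0.382) as a block. MAT1A, a methionine adenosyltransferase, was well above background on 4 control arrays but on 1 KHSRP siRNA array, and its difference of -1.09 (adjusted p = 0.0621) is that of a dim probe.

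The users of formyl-folate in purine synthesis, GART and ATIC, differed by -0.05 and -0.11 (adjusted p 0.900 and 0.650). Of 10 other purine enzymes 4 were higher and 6 lower, PRPS2 most (-0.47, SE 0.13, adjusted p = 0.0818). PRPS2 fell with slide as a block (adjusted p = 0.0426) but was not called with the scanner file numbers as a block (0.169). In glycine cleavage GLDC had the largest difference (-1.03, SE 0.62, adjusted p = 0.432), at a probe whose control levels ran from -3.02 to -1.34. DLD, a subunit of that system and of other dehydrogenases, differed by -0.64 (adjusted p = 0.133). The 3 serine synthesis genes differed by -0.22 (PSAT1), -0.12 (PHGDH) and -0.03 (PSPH), with adjusted p of at least 0.599. MTHFSD, named for a domain like that of MTHFS, differed by 0.18 (SE 0.19, adjusted p = 0.695).

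With slide as a block 2 of the 41 genes were called (MTR and PRPS2), where the fit called 6.23% of all probes. With the series matrix pairing as a block 13 (31.7%) were called, 4 higher and 9 lower, where the fit called 30.1% of all probes. Those higher were SLC46A1, ADSS2, IMPDH1 and SLC19A1, whose second probe went the other way, and among those lower were FOLR3, TYMS, PRPS2, GLDC, DLD, MTR, MTRR and MAT1A. Of these FOLR3, GLDC and MAT1A were well above background on all 4 control arrays but on 3, 3 and 1 KHSRP siRNA arrays, so that they entered the test through the group in which they were higher. The share called was near that of all probes.

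**Figure D5:**
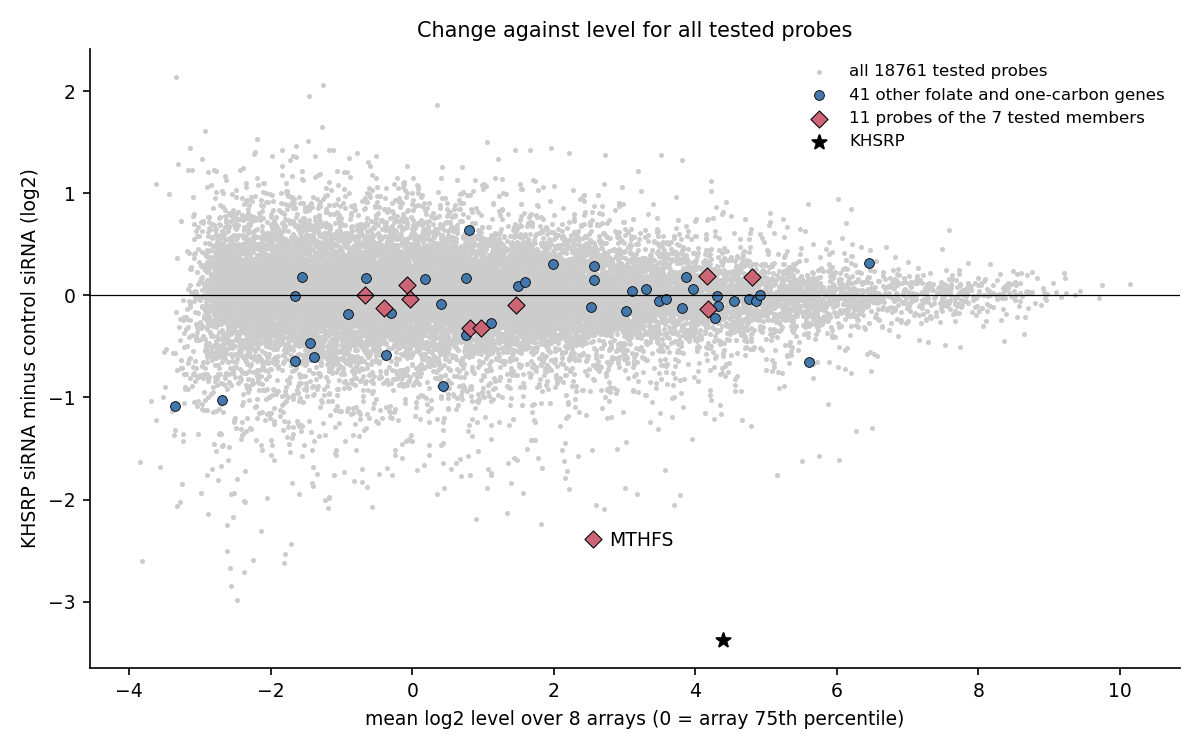
Log2 difference, KHSRP siRNA minus control siRNA, against the mean log2 level over the 8 arrays for all 18761 tested probes (grey), the 41 other folate and one-carbon genes (blue), the 11 member probes (red) and KHSRP (star). MTHFS lies at -2.39, and the other 10 member probes lie between -0.32 and 0.19.

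The mitochondrial enzymes MTHFD2, SHMT2 and ALDH1L2 and the serine synthesis genes are known targets of the transcription factor ATF4, so 9 genes of the amino acid response were read beside them. In this list 1 of the 9 genes was called, where limma called 5.54% of all tested probes. The called gene was SESN2, which encodes a stress-induced inhibitor of growth signalling. It rose from -0.45 ± 0.09 to 0.44 ± 0.09 (SD, n = 4 each), by 0.90 on the log2 scale (SE 0.10, adjusted p = 0.00293), without overlap, though its adjusted p was 0.0535 with the scanner file numbers as a block. With the pairing as a block, which called 30.1% of all probes, 5 of the 9 were called, with SESN2, ASNS and CEBPB higher and DDIT3 and SLC7A11 lower. The median of the 9 was 0.01, and without a block ATF4 (0.01), TRIB3 (0.01) and ASNS (0.30) had adjusted p of 0.628 to 0.986.

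Genes nearest to MTHFS in their pattern were sought over the 8 arrays by the root mean square difference of log2 levels, each taken relative to its own control mean, among 12124 named genes. The nearest were ITGB1 (0.20 log2 units, A_23_P104199), ALG2 (0.25, A_33_P3297050), SRSF7 (0.25, A_24_P222911), HECTD2 (0.27, A_32_P201979) and BRMS1L (0.28, A_24_P56484). ALG2, HECTD2 and BRMS1L were well above background on 2, 0 and 1 of the 4 KHSRP siRNA arrays. They entered the comparison through the control group, and their likeness rests in part on dim signals. Because levels were relative to the control mean, likeness follows mainly the size of the difference for which MTHFS was chosen. The genes named here differed by -2.43 to -2.08, and their likeness is no further support for the low MTHFS signal. MTHFS has 1 probe on the array, so its difference was read at 1 site of the mRNA.

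The tested genes beside MTHFS on chromosome 15 differed by -0.35 to 0.30 between the groups. Limma called 0 of 4 of them and 5.54% of all tested probes, and so few genes cannot tell this count apart from that share. In the RefSeq annotation of GRCh38.p14, which was used for gene order, the nearest genes with a tested probe are MINAR1 and TMED3 on one side and BCL2A1 and ZFAND6 on the other. Their log2 differences were -0.0038 for MINAR1, 0.30 for TMED3 (adjusted p = 0.273), -0.35 for BCL2A1 (adjusted p = 0.567) and 0.12 for ZFAND6. With the pairing as a block, which called 30.1% of all probes, TMED3 (adjusted p = 0.0297) and BCL2A1 (adjusted p = 0.0125) were called, in opposite directions. ANKRD34C and ST20-AS1 were well above background on 0 arrays. A readthrough transcript, ST20-MTHFS, ends at the same place as MTHFS in that annotation, and the probe was taken as MTHFS through its accession alone.

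The promoters of the members were read for what they share, as RefSeq windows on GRCh38.p14 that hold 250 bases before and 50 after each listed start. Windows were found for 6 members, 11 windows in all, among 35116, and SHMT2 and ALDH1L2 had none. The E-box CACGTG, read on both strands, is bound by MYC and related factors, and TGATGNAA, also read on both strands, is the composite element of ATF4 and C/EBP factors. The matches to the 2 motifs lie apart from each other. The following stretches of 30 bases are shown because they are the places in these windows with a match, which the capitals mark.
MTHFD1 (chr14:64388323-64388352, + strand, match 15 bases before the start): tggccagtccctaagCACGTGggttgggtt
MTHFD1L (chr6:150866321-150866350, + strand, match 154 bases before 1 of its starts): acgcccggctcCACGTGcgcagccggccgc
MTHFD1L (chr6:150866346-150866375, + strand, match 129 bases before the same start): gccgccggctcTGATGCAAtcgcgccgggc
FPGS (chr9:127803094-127803123, + strand, match 76 bases before 1 of its starts): gggcgcgacgaCACGTGggcctgcgctgag
The E-box was in 5 of the 11 member windows, which belong to 3 genes and partly overlap, and in 7.26% of all windows. TGATGNAA was in 3 of the 11, all overlapping windows of MTHFD1L, and in 3.62% of all windows. By gene, the E-box was in 3 of the 6 members with a window and TGATGNAA in 1 of the 6. The share of all genes was not counted, and overlapping windows of a gene are not separate cases, so no excess can be read from these shares. The windows of MTHFS, MTHFD2 and SHMT1 held neither set of letters. A match is a feature of the sequence, and these arrays do not measure binding there.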

How the data were processed

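Total RNA of KYSE850 cells was labelled with Cy3 and hybridised to 8 arrays, 4 per siRNA group, grouped by their titles. The authors extracted the spots with Agilent Feature Extraction (11.5.1.1 per the file headers, 12.6 per the submitters' processing notes), so that the deposited scanner values are linear fluorescence intensity, background-subtracted and detrended within each array and not scaled between arrays. A table of log2 values for the same arrays (the series matrix, made in GeneSpring according to the methods) was also deposited and served as an alternative. Within groups its columns correlated at 1.00 with the scanner values, except that columns 3 and 4 of the KHSRP siRNA group matched the scanner arrays 4 and 3. Its column medians were -0.19, -0.19, -0.08 and -0.02 for control siRNA and -0.25, -0.17, 0.22 and 0.07 for KHSRP siRNA, and how it was centred stays unknown.

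Control and outlier spots were left out, and signals were log2-transformed, averaged per probe and set relative to the 75th percentile of the array. Testing was limited to probes for which a share of 0.5 or more of the spots passed the flag for signal well above background on each of the 4 arrays of either group. Symbols came from RefSeq accessions (GRCh38.p14) for 27241 of 42405 probes. The tested probe with the highest mean level stood for a gene. The siRNA groups were set against each other in limma (3.58.1, R 4.3.3, two-sided, no block), and other steps used Python 3.11.15. The limma step was tested on simulated data with independent noise, which lack the deviations that these arrays share. The number of arrays limits the precision. Same-numbered arrays deviated together from their group means under the numbers of the series matrix (r from 0.43 to 0.84 in 4 pairs). Under those of the scanner files r was 0.52, 0.43, -0.67 and -0.64, and both were tried as blocks. The series matrix pairs also share a slide and the kind set by the squamous markers, so these correlations do not establish the pairing.

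The members and lists were chosen with earlier results of these data known, and the promoter motifs after the values were seen. Named are all members, the called genes of each list and the gene with the largest difference in each, the 5 nearest patterns and 3 neighbours per side. Genes singled out beyond this rule (SLC19A1, MTR, MTRR, DLD, IMPDH1, ADSS2 and FOLR3 among them) were chosen after their values were seen. Alternatives covered scaling, background correction, filters, blocks, variance models, the methods' t-test, the probe of a gene and leaving out each array. Some genes of the lists are counted but not reported here by name.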

Additional observations from a re-analysis of the deposited data

Results flagged for a closer look

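Of 42 sets of 4 arrays that were screened with Dixon's test (95% level) for a single distant array, 2 passed its limit, close to the 1 in 20 that chance alone gives. The statistic is the distance of the extreme array from its neighbour as a share of the whole range. It was 0.956 for SHMT2 at A_23_P169629, where control siRNA replicate 4 (4.92) lay above the next control (4.65), and leaving that array out gave a log2 difference of 0.25. It was 0.877 for SHMT1 at A_23_P502654, where control siRNA replicate 2 (-0.48) lay above the next control (-0.70).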

How the results depend on the processing

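Of 22 alternatives, the difference of MTHFS stayed within 1 within-group SD in 21 and was -2.21 under normexp background correction, with -2.42 to -2.34 when 1 array was left out. KHSRP stayed past the threshold in all 22. The number of called probes, 1039, was 570 under median scaling (17.2% of calls higher, against 34.6%), 319 with no filter, 156 with the replicate block by the scanner file numbers, 5644 with the replicate block by the series matrix numbers, and 489 to 766 when 1 array was left out (489 to 685 without control siRNA replicate 1, 2 or 3 or KHSRP siRNA replicate 1, 2 or 4). The methods' t-test called 3710 probes at its own threshold and 1081 after Benjamini-Hochberg adjustment. Among the members other than MTHFS, 0 genes were called, except 1 (MTHFD1L) with the replicate block by the series matrix numbers. Among the 41 other folate and one-carbon genes, 1 was called under median scaling (MTR). The slide block called 2, where it called 6.23% of all 18761 tested probes. The replicate block by the series matrix numbers called 13, where it called 30.1%. Array weights called 3 (TYMS, MTR and MAT1A), where they called 1339 of all tested probes. The mean of all probes of a gene called 1 (MTR), and its share over all genes was not counted. When 1 array was left out, 0 to 1 was called. It was MAT1A without control siRNA replicate 3 (685 of all probes called) and MTR without KHSRP siRNA replicate 4 (670). MAT1A entered the test through the control arrays alone. The replicate block by the scanner file numbers called 0 of the 41 genes. FPGS turned from -0.09 to 0.0174 without control siRNA replicate 1 and to 0.0202 without KHSRP siRNA replicate 3, and lay between -0.21 and 0.02 over all arrays left out. The cause was not tested for any of these shifts. MTHFD1, MTHFD1L, MTHFD2, SHMT1 and SHMT2 kept their sign in all 22. Dim probes limit the test of ALDH1L2 and 9 pathway genes.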
